A study of Mus musculus with 9 samples.

Results

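Genes of the primary cilium and the centrosome were measured by RNA sequencing in MC38 cells, a mouse colon carcinoma line. The 78 genes, of 16509 in the deposited table, were chosen by their symbols: those that open with Ift, Bbs, Tctn, Cep or Nphp and a number, those that open with Dync2, and Mks1, B9d1, B9d2, Cc2d2a, Tmem67, Tmem216, Tmem231, Rpgrip1l, Ttbk2 and Arl13b. The symbols decided which genes entered, but the set was selected on results of these same comparisons, so the counts of members below are descriptions that stand beside the share of all genes called, and nothing about the set is read from them. The 9 libraries formed 3 groups of 3. Ctrl cells carry the treatment label DMSO, whereas the study's text names PBS for its untreated cells. Cu-Cys cells received the cystine copper copolymer alone. Cadict cells received the nanodrug built on that copolymer with glucose oxidase (GOx), which consumes glucose, and the peptide GE11, which binds the receptor EGFR. The labels give neither a dose nor a time for these libraries, all of which come from the same cell line, and they do not say whether replicates were separate cultures, so that p-values measure only the spread between these libraries.

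The primary cilium is a single antenna-like protrusion of the cell surface that grows from the older centriole of the centrosome when a cell leaves the division cycle and is taken down again before mitosis. Intraflagellar transport (IFT) trains carry cargo along it, with IFT-B subunits and kinesin-2 moving outward and IFT-A subunits and dynein-2 moving back. The BBSome sorts membrane proteins, and the transition zone at the base acts as a gate. The centrosome, a pair of centrioles in a protein matrix, organizes microtubules in cycling cells, and several of its proteins also form the distal appendages with which the mother centriole docks at the membrane.

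Between 17905771 and 18293056 expected counts were assigned per library. The share of them in the 78 genes was 0.279% ± 0.00348 (SD, n = 3) in Ctrl, 0.232% ± 0.00275 in Cu-Cys and 0.103% ± 0.00587 in Cadict. Levels are given as CPM, counts scaled to a common library size after TMM scaling (a trimmed mean of log ratios between libraries), on which the upper limit for a gene with no reads, 3 counts, was 0.13 to 0.138 CPM in Ctrl and Cu-Cys and 0.252 to 0.261 CPM in Cadict, for counting error only. The scaling set the direction of some members in the Cadict comparisons: TMM factors were 1.26 to 1.27 in Ctrl and 0.640 to 0.665 in Cadict, and scaling by library totals alone lowered the median log2 fold change of all genes by 0.95 in Cadict against Ctrl. Changes below are therefore relative to the bulk of genes under TMM. The labelled cell line was checked on marker genes: the epithelial genes Krt8, Krt18, Epcam, Vil1 and Muc2 were below the filter on low counts and 2 others, Krt19 and Cdh1, had means of 1.05 and 4.86 CPM in Ctrl and 10.8 and 12.8 in Cadict, where both were called higher (log2 fold changes 3.34 and 1.39), and their part in the results was not tested. The 8 mesenchymal markers summed to 3271 to 3413 TPM (the deposited transcript level, scaled for gene length and library size) in Ctrl, of which Vim made up 2919. Of this list Col1a1 and Col1a2 were called lower with Cadict (-1.50 and -2.19) and none higher. The median of the 8 was 0.050, with 5 above 0. At an adjusted p of at most 0.05, 3 were lower and 2 higher, beside 47.1% and 40.6% of all genes. With Cu-Cys, 1 of the 8 was called lower, beside 1.47% of all genes. In bulk RNA, fewer cells of a type and less RNA per cell cannot be told apart.

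Of the 78 genes, 77 passed the filter and were tested. Cep126, a centriolar satellite protein, was not tested, with 0 counts in all libraries but 1 count in Cu-Cys replicate 3. In Cadict against Ctrl, 34 of the 77 were called lower and 3 higher, that is, changed by 2-fold or more with adjusted p no greater than 0.001 (edgeR quasi-likelihood test, Benjamini-Hochberg), where 27.1% and 20.7% of all 11949 genes tested were called lower and higher. At an adjusted p of at most 0.05 without a fold limit, 59 passed lower and 14 higher, beside 47.1% and 40.6% of all genes. The median log2 fold change was -0.87 over the members and -0.13 over all genes. Against Cu-Cys, 27 members were called lower and 4 higher in Cadict, beside 23.6% and 18.6% of all genes, and 53 passed lower and 17 higher at 0.05, beside 45.6% and 40.3%. That median was -0.59 over the members and -0.099 over all genes. With Cu-Cys against Ctrl no member was called, beside 1.47% of all genes lower and 0.167% higher, but at 0.05 38 passed lower and 8 higher, beside 22.4% and 22.6%. The 8 became 5, 4, 4 and 5 without Ctrl replicate 1, 2 or 3 or Cu-Cys replicate 2. Here the medians were -0.21 and 0.0067. With library totals, under which the median of all genes was -1.08, 3 of the 77 members were above 0 in Cadict against Ctrl, in place of 17. These were Ift43, Cep85l and Cep57, of which the last 2 did not pass (adjusted p = 0.108 and 0.365). The share of all genes above 0 was not computed for that scaling, so nothing is read from the 3.

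**Figure D1:**
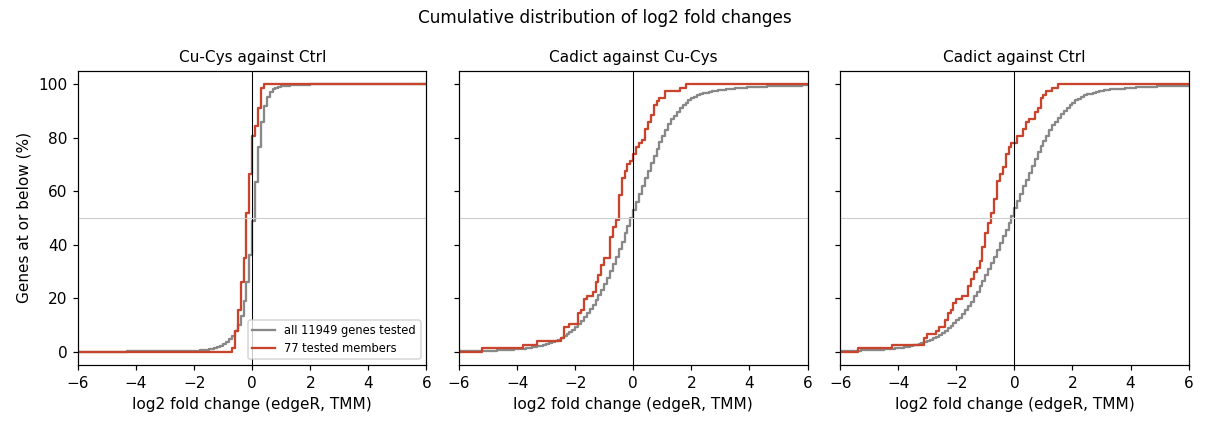
Cumulative distribution of log2 fold changes (horizontal axis, edgeR with TMM) for the 77 tested members (red) and all 11949 genes tested (grey), as the percent of genes at or below each value, in the 3 comparisons. The members' curve lies left of that of all genes over the middle of each panel, with medians of -0.21, -0.59 and -0.87 against 0.0067, -0.099 and -0.13.

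A feature of the members that the symbols do not use is the X-box, the site of RFX transcription factors that stands in the promoters of many cilium genes. Both strands of RefSeq promoters (GRCm38.p6, 250 bases before to 50 after each start) were searched for the half-sites GTTNCC and GGNAAC with 1 to 3 bases between them. Of the 65 members found in the promoter table, 7 held the motif (10.8%), namely Bbs7, Cep19, Cep41, Ift57, Mks1, Tctn1 and Tctn3, beside 119 of 12889 genes of the expression table (0.923%). The match is a description of letters, not of binding. The 4 promoters whose genes had the highest Ctrl TPM among these 7 are printed 5′ to 3′ on the strand of the gene, with the motif in capitals. The likeness of the motif between them follows from the pattern searched for, and the flanks differed.
Bbs7, promoter at chr3:36613340-36613639, minus strand: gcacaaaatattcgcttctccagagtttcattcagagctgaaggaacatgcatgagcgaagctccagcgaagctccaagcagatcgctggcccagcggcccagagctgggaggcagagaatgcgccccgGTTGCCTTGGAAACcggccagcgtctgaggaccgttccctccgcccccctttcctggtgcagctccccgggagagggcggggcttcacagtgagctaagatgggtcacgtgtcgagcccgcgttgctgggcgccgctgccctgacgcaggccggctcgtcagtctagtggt
Ift57, promoter at chr16:49699044-49699343, plus strand: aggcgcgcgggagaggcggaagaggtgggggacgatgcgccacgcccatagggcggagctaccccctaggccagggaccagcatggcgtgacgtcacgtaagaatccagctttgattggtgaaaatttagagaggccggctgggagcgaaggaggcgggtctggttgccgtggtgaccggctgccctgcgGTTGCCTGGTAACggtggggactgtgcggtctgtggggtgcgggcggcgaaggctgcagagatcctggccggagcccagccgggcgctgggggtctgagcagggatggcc
Cep19, promoter at chr16:32099539-32099838, plus strand: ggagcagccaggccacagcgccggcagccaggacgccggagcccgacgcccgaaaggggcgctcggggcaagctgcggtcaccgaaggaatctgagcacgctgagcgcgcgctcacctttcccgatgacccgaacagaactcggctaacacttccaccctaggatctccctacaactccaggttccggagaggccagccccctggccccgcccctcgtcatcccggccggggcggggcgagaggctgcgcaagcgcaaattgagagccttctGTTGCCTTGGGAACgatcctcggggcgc
Cep41, promoter at chr6:30693700-30693999, minus strand: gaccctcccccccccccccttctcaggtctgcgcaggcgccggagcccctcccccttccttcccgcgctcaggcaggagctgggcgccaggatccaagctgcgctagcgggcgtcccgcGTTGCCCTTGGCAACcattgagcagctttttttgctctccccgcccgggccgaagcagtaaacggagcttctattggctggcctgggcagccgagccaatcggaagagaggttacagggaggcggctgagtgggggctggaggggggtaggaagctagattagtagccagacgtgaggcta
The motif began 121 bases before the start in Bbs7, 60 in Ift57 and 131 in Cep41, and 22 bases after it in Cep19. All 7 genes with the motif passed lower in Cadict against Ctrl, as did 76.6% of the 77 tested members and 47.1% of all genes, and nothing is read from their count. They ranged from Ift57, an IFT-B subunit, at a log2 fold change of -0.35 (which did not pass without Cadict replicate 3, adjusted p = 0.0724, nor under DESeq2) to Tctn3 at -2.69. Mks1 stood at -2.46, Tctn1 at -1.66, Cep41 at -0.91, Cep19 at -0.77 and Bbs7 at -0.62, so the letters went with both small and large changes. Exons of Tctn1 overlap antisense genes over 25.5% of their bases in GENCODE M21, and the strand used in counting is not given in the sources used here.

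The transition zone, the gate at the base of the cilium, had the lowest median of the role groups. Of its 15 tested members, 12 passed lower with Cadict, beside 47.1% of all genes, and 10 of them were called, beside 27.1%. The median log2 fold change of the 15 was -1.66. Tmem231 (Entrez Gene 234740), a membrane protein of the Meckel syndrome module of the gate, had 55.6, 53.2 and 56.9 CPM in Ctrl, 40.4, 40.4 and 41.7 in Cu-Cys and 11.4, 10.5 and 10.9 in Cadict. The 3 groups did not overlap, and the order was Ctrl, Cu-Cys, Cadict. It fell by 2.34 on the log2 scale with Cadict (SE 0.0692, adjusted p = 5.03e-14) and by 0.44 with Cu-Cys (SE 0.0534, adjusted p = 1.54e-05). Tctn3 (Entrez Gene 67590), a tectonic of the same module, had 10.1, 10.3 and 9.9 CPM in Ctrl, 8.49, 8.51 and 8.03 in Cu-Cys and 1.87, 1.31 and 1.51 in Cadict, again without overlap. Its log2 fold change was -2.69 with Cadict (SE 0.141, adjusted p = 3.96e-11) and -0.28 with Cu-Cys (SE 0.0855, adjusted p = 0.0163), the latter lost without Ctrl replicate 2 or Cu-Cys replicate 3 (adjusted p = 0.0621 and 0.068). Rpgrip1l, a scaffold of the gate, fell by 2.39 with Cadict and by 0.56 with Cu-Cys, and Mks1 by 2.46 and 0.70.

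Not all of the gate moved that way. Tmem67, the receptor-like protein meckelin, passed higher in Cadict at a log2 fold change of 0.61, and Cep290, which tethers the membrane to the microtubules at the gate, at 0.25, although both fell with Cu-Cys, by 0.45 and 0.23. The Cu-Cys change of Cep290 did not pass without Ctrl replicate 1 or 3 or Cu-Cys replicate 1 or 3 (adjusted p = 0.0569, 0.0957, 0.0827 and 0.104). With library totals in place of TMM, their Cadict values turned to -0.34 and -0.70, and both passed lower (adjusted p = 0.00665 and 5.84e-07). The Cadict value of Cep290 did not pass with no filter (0.17, adjusted p = 0.0555). The Cu-Cys changes of Cep290 and Tctn3 did not pass under DESeq2's Wald test either (adjusted p = 0.076 and 0.135). B9d1 did not pass and its libraries overlapped. With Cu-Cys, all 15 transition zone members had a log2 fold change below 0 under TMM, where 49.0% of all genes were at or below 0. B9d2 was only just below, at -0.0055, and stood at 0.021 with DESeq2's size factors. Of the 15, 10 passed lower, beside 22.4% of all genes.

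**Figure D2:**
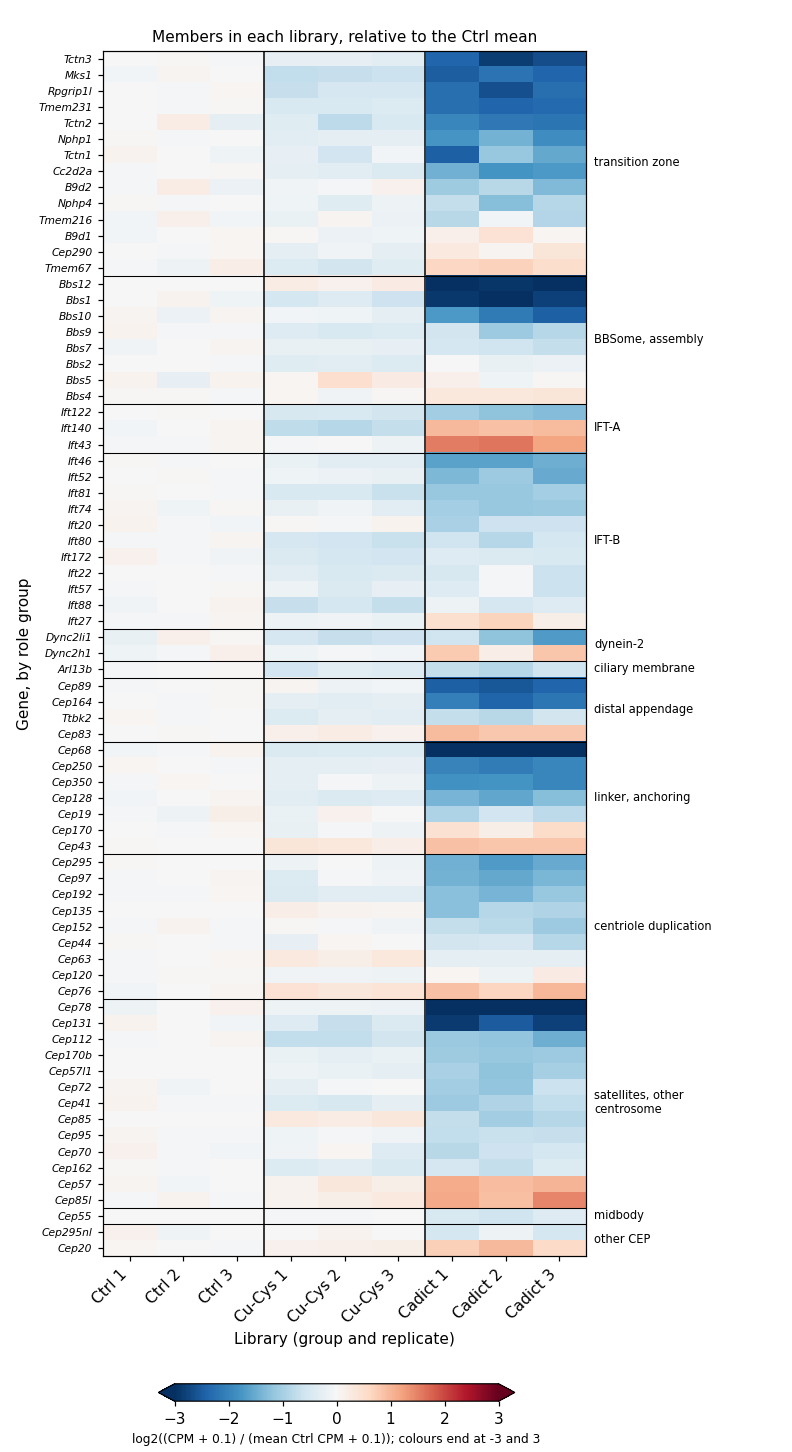
Members that passed the filter and are reported by name (rows, by role group) in each of the 9 libraries (columns), as log2 of (CPM + 0.1) over (mean Ctrl CPM + 0.1), with blue for lower and red for higher and colours ending at -3 and 3. The Cadict columns are mostly blue, with Ift140, Ift43, Cep57 and Cep85l among the red rows, and the Cu-Cys columns are pale. Under library totals only Ift43, Cep85l and Cep57 stayed above 0 in Cadict against Ctrl, and of these only Ift43 passed.

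Among the 8 BBSome members and assembly factors, log2 fold changes with Cadict ranged from -3.16 to 0.34, with a median of -0.72. Of the 8, 5 passed lower and 1 higher, beside 47.1% and 40.6% of all genes. Bbs12 (Entrez Gene 241950), a chaperonin-like protein that helps to assemble the complex, stood at 34.3, 33.8 and 34.1 CPM in Ctrl, 40.0, 37.0 and 40.4 in Cu-Cys and 3.14, 4.45 and 3.86 in Cadict. It was above Ctrl in all Cu-Cys libraries and far below it in all Cadict libraries. It fell by 3.16 with Cadict (SE 0.101, adjusted p = 1.27e-13) and rose with Cu-Cys by 0.20 (SE 0.0634, adjusted p = 0.0181). That rise did not pass without any 1 of the Ctrl libraries or without Cu-Cys replicate 1 or 3, with adjusted p between 0.0537 and 0.082, nor with library totals (0.13, adjusted p = 0.103) or in any limma fit. Bbs1 (Entrez Gene 52028), the subunit through which the complex binds the GTPase Arl6, had 7.05, 7.49 and 6.41 CPM in Ctrl, 4.80, 5.30 and 4.47 in Cu-Cys and 0.850, 0.610 and 0.924 in Cadict, the last from 10, 7 and 11 counts. Its log2 fold change was -3.12 with Cadict (SE 0.195, adjusted p = 3.51e-10) and -0.52 with Cu-Cys (SE 0.112, adjusted p = 0.00161). Bbs2, another subunit, stood at -0.13 in Cadict against Ctrl, which did not pass (adjusted p = 0.117) but did without Cadict replicate 1 (-0.20, adjusted p = 0.0332), under both other filters on low counts (-0.19 and -0.21), with library totals (-1.09, adjusted p = 1.18e-09) and in all limma fits.

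The IFT-A complex, which serves return transport and the entry of membrane proteins, held the highest member of the set. Ift43 (Entrez Gene 76411), a small peripheral subunit, stood at 14.3, 14.6 and 15.9 CPM in Ctrl, 14.4, 14.7 and 13.4 in Cu-Cys and 43.5, 45.9 and 34.1 in Cadict. All Cadict libraries were above the others, while Ctrl and Cu-Cys overlapped. It rose with Cadict by 1.46 (SE 0.0978, adjusted p = 8.27e-10), which was 0.51 with library totals (adjusted p = 7.97e-05) and did not pass with limma on TPM (0.11, adjusted p = 0.194 and 0.195), and its Cu-Cys value of -0.08 did not pass (adjusted p = 0.582). Ift140 (Entrez Gene 106633), a core subunit, had 47.67, 50.04 and 53.37 CPM in Ctrl, 29.7, 27.8 and 30.8 in Cu-Cys and 99.6, 92.7 and 97.7 in Cadict. The groups were thus ordered Cu-Cys, Ctrl, Cadict, with no overlap. It had the smallest adjusted p of all members in Cu-Cys against Ctrl, a fall by 0.77 (SE 0.0629, adjusted p = 3.76e-07), and a log2 fold change of 0.94 in Cadict against Ctrl (SE 0.0604, adjusted p = 4.94e-10) that turned to -0.01 with library totals. Against Cu-Cys it rose in Cadict by 1.72 (adjusted p = 8.37e-13). Ift122 (Entrez Gene 81896), another core subunit, went the other way, from 25.6, 26.5 and 25.9 CPM in Ctrl through 18.6, 19.0 and 17.7 in Cu-Cys to 12.6, 11.2 and 10.4 in Cadict. Its log2 fold change was -1.19 with Cadict (SE 0.0811, adjusted p = 1.06e-09) and -0.49 with Cu-Cys (SE 0.068, adjusted p = 4.51e-05).

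IFT-B, the complex of outward transport, was lower with Cadict in 10 of 11 members, with a median of -0.65 over the 11. All 10 passed, where 47.1% of all genes passed lower. Of the 10, Ift57 and Ift88 did not pass with DESeq2's size factors (adjusted p = 0.0768 and 0.0713) or its Wald test (adjusted p = 0.0914 and 0.114). Ift46 (Entrez Gene 76568), a core subunit, had 26.0, 24.7 and 24.9 CPM in Ctrl, 22.1, 20.1 and 20.3 in Cu-Cys and 8.24, 8.28 and 9.07 in Cadict. It fell by 1.56 with Cadict (SE 0.0836, adjusted p = 5.25e-11) and by 0.27 with Cu-Cys (SE 0.0655, adjusted p = 0.00346). Ift52 (Entrez Gene 245866), another core subunit, had 46.8, 47.2 and 44.7 CPM in Ctrl, 42.1, 41.2 and 39.7 in Cu-Cys and 18.1, 21.5 and 16.0 in Cadict. It fell by 1.32 with Cadict (SE 0.0832, adjusted p = 3.94e-10), and its Cu-Cys value of -0.17 did not pass (adjusted p = 0.0552), but did without Cadict replicate 2 or 3 (adjusted p = 0.00606 and 0.0219). The exception was Ift27 (Entrez Gene 67042), a small GTPase of the complex and the member with the second highest Ctrl level, 74.4 ± 3.28 TPM (SD, n = 3). It stood at 22.5, 22.2 and 24.2 CPM in Ctrl, 20.5, 21.4 and 19.9 in Cu-Cys and 31.9, 36.8 and 25.8 in Cadict, with all Cadict libraries above the others. Its log2 fold change of 0.45 (SE 0.0983, adjusted p = 0.00047) turned to -0.50 with library totals, which passed lower (adjusted p = 8.4e-05). In several IFT-B subunits the fall was already there with Cu-Cys: Ift88, needed for the cilium to form, changed by -0.65 with Cu-Cys and by -0.34 with Cadict, and Ift172 by -0.51 and -0.42. Both comparisons share the Ctrl libraries. Over the 11 members the median was -0.28 in Cu-Cys against Ctrl and -0.065 in Cadict against Cu-Cys. In the latter 5 passed lower and 2 higher, beside 45.6% and 40.3% of all genes.

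Of the dynein-2 genes, which encode the motor of return transport, the heavy chain and a light intermediate chain differed. Dync2h1 (Entrez Gene 110350), the heavy chain, had 8.87, 9.31 and 10.7 CPM in Ctrl, 8.81, 9.19 and 9.03 in Cu-Cys and 16.6, 11.2 and 17.3 in Cadict, where replicate 2 was nearest to Ctrl. Its log2 fold change with Cadict was 0.64 (SE 0.132, adjusted p = 0.000307), and -0.31 with library totals, which passed lower (adjusted p = 0.042). Dync2li1 (Entrez Gene 213575), the light intermediate chain, had 7.66, 9.96 and 9.20 CPM in Ctrl, 6.32, 5.53 and 5.79 in Cu-Cys and 5.86, 3.83 and 2.69 in Cadict. It fell by 1.11 with Cadict (SE 0.189, adjusted p = 4.69e-05) and by 0.60 with Cu-Cys (SE 0.153, adjusted p = 0.00502). Arl13b (Entrez Gene 68146), a small GTPase of the ciliary membrane, had 34.6, 35.1 and 35.8 CPM in Ctrl, 23.7, 28.0 and 27.0 in Cu-Cys and 21.4, 19.4 and 23.2 in Cadict. It fell by 0.72 with Cadict (SE 0.0803, adjusted p = 4.5e-07) and by 0.42 with Cu-Cys (SE 0.072, adjusted p = 0.000279), and the Cu-Cys and Cadict libraries did not overlap.

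**Figure D3:**
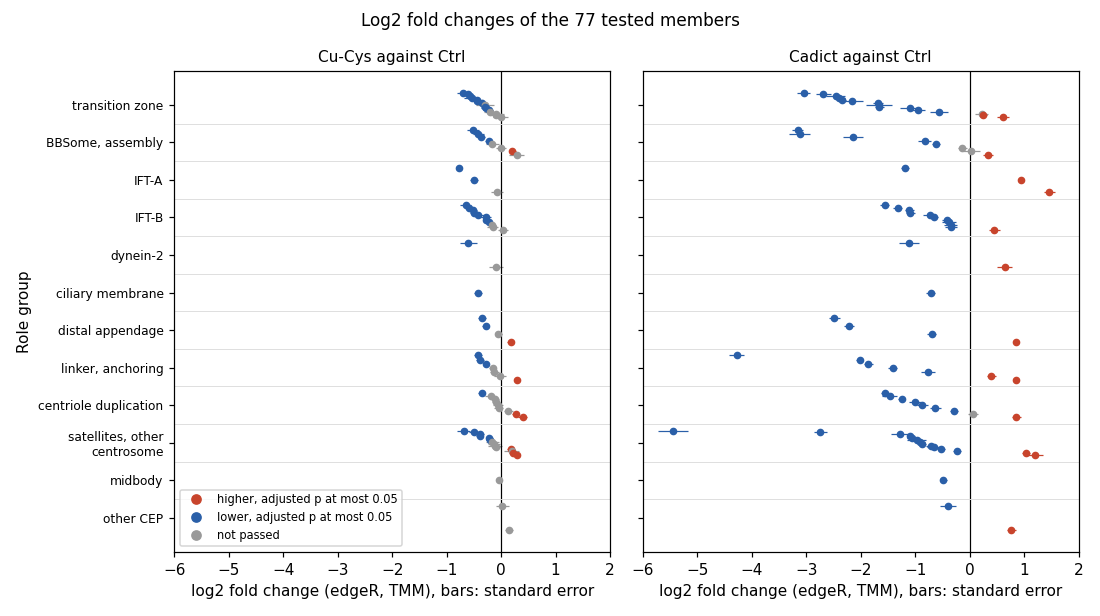
Log2 fold change (horizontal axis, edgeR with TMM, bars showing the standard error) of each tested member by role group, for Cu-Cys against Ctrl (left) and Cadict against Ctrl (right), red for higher and blue for lower at adjusted p up to 0.05 and grey for not passed. Cu-Cys values span -0.77 to 0.40 and Cadict values -5.44 to 1.46, and most red points of the right panel fall below 0 with library totals.

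Distal appendages dock the mother centriole at the membrane, and their genes split. Cep164 (Entrez Gene 214552), which recruits the kinase Ttbk2 to start ciliogenesis, had 34.4, 34.2 and 35.9 CPM in Ctrl, 28.9, 28.0 and 29.0 in Cu-Cys and 8.33, 6.54 and 7.64 in Cadict. It fell by 2.21 with Cadict (SE 0.0848, adjusted p = 9.99e-13) and by 0.28 with Cu-Cys (SE 0.0627, adjusted p = 0.00208). Cep89 (Entrez Gene 72140), another appendage protein, had 24.1, 24.2 and 25.3 CPM in Ctrl, 25.89, 22.04 and 23.26 in Cu-Cys and 4.42, 4.10 and 4.62 in Cadict. Cu-Cys overlapped with Ctrl and Cadict did not: the log2 fold change was -2.48 with Cadict (SE 0.104, adjusted p = 2.68e-12) and -0.05 with Cu-Cys (adjusted p = 0.604). Cep83, on which the other appendage proteins assemble, passed higher in Cadict at 0.85, or -0.10 with library totals.

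The linker that holds the centrioles of an interphase cell together included a gene among the 3 lowest members. Cep68 (Entrez Gene 216543), a linker protein, had 37.1, 38.0 and 42.6 CPM in Ctrl, 28.9, 29.7 and 29.3 in Cu-Cys and 2.63, 1.31 and 2.10 in Cadict. The Cadict libraries were all far below the rest, a 19.4-fold lower level (log2 fold change -4.28, SE 0.135, adjusted p = 1.09e-13), and the change with Cu-Cys was -0.42 (SE 0.0767, adjusted p = 0.000469). Cep250 (Entrez Gene 16328), the protein to which the linker is anchored, had 87.9, 84.2 and 81.8 CPM in Ctrl, 70.6, 68.5 and 71.2 in Cu-Cys and 21.1, 19.8 and 21.7 in Cadict. It fell by 2.02 with Cadict (SE 0.0618, adjusted p = 7.4e-14) and by 0.27 with Cu-Cys (SE 0.0514, adjusted p = 0.000628). An antisense gene overlaps 11.1% of its exonic bases. In this group of 7, 5 passed lower and 2 higher with Cadict, beside 47.1% and 40.6% of all genes. The higher ones were Cep43 (0.85) and Cep170 (0.40), which turned to -0.11 and -0.55 with library totals. There Cep170 passed lower (adjusted p = 1.47e-05) and Cep43 did not pass.

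Genes of centriole duplication and length were lower in 7 of 9 cases with Cadict, with a median of -0.87. All 7 passed, where 47.1% of all genes passed lower. Cep295 (Entrez Gene 319675), needed for new centrioles to mature into centrosomes, had 44.6, 43.3 and 43.1 CPM in Ctrl, 39.2, 43.2 and 39.5 in Cu-Cys and 16.0, 13.3 and 15.2 in Cadict. It fell by 1.56 with Cadict (SE 0.0759, adjusted p = 1.69e-11), with antisense overlap over 19.1% of its exonic bases, and its Cu-Cys value of -0.10 did not pass (adjusted p = 0.189). Cep97 (Entrez Gene 74201), which caps centrioles and blocks cilium growth in cycling cells, had 9.126, 9.437 and 10.03 CPM in Ctrl, 7.15, 9.10 and 8.80 in Cu-Cys and 3.48, 3.23 and 3.61 in Cadict. It fell by 1.47 with Cadict (SE 0.136, adjusted p = 4.53e-08), and its Cu-Cys value of -0.19 did not pass (adjusted p = 0.131). Cep63, a partner in duplication, rose with Cu-Cys by 0.27, which did not pass with limma on TPM (adjusted p = 0.161 and 0.191), and fell by 0.28 with Cadict, which did not pass under DESeq2's Wald test (-0.19, adjusted p = 0.0568). Beside these genes, the 10 cell cycle markers moved too. Where 47.1% and 40.6% of all genes passed lower and higher with Cadict, 8 of the markers passed lower and 1 higher, with a median of -1.74. They summed to 3821 to 4014 CPM in the Ctrl libraries, 3323 to 3449 in Cu-Cys and 1905 to 1972 in Cadict, and none of the 10 was at 0. Their part in the change of the centrosome genes was not tested.

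The remaining centrosome genes held the lowest member. Cep78 (Entrez Gene 208518), a centriolar protein whose loss causes a retinal and hearing disease, had 16.8, 18.9 and 20.7 CPM in Ctrl, 17.0, 16.8 and 16.6 in Cu-Cys and 0.425, 0.872 and 0 in Cadict, the last from 5, 10 and 0 counts. Ctrl and Cu-Cys overlapped, and Cadict lay near the limit of 3 counts, so the size of the log2 fold change, -5.44 (SE 0.272, adjusted p = 2.31e-11), rests on few counts. Its Cu-Cys value of -0.16 did not pass (adjusted p = 0.273). Cep131 (Entrez Gene 12009), a satellite protein, had 33.6, 30.8 and 29.4 CPM in Ctrl, 23.9, 19.4 and 23.1 in Cu-Cys and 4.16, 5.49 and 4.37 in Cadict. The groups did not overlap, and it fell by 2.74 with Cadict (SE 0.123, adjusted p = 6e-12) and by 0.50 with Cu-Cys (SE 0.0848, adjusted p = 0.000279). Cep57 (Entrez Gene 74360), a protein of the pericentriolar matrix, went up: it had 40.0, 36.1 and 37.7 CPM in Ctrl, 40.6, 48.2 and 42.7 in Cu-Cys and 82.2, 72.6 and 77.0 in Cadict. It rose by 1.03 with Cadict (SE 0.0726, adjusted p = 1.63e-09), or 0.07 with library totals, which did not pass (adjusted p = 0.365), and by 0.21 with Cu-Cys (SE 0.072, adjusted p = 0.0285), the latter lost without Ctrl replicate 2 or 3 or Cu-Cys replicate 2 (adjusted p = 0.118, 0.0788 and 0.151), with library totals (adjusted p = 0.15) and in all limma fits. Cep85l (Entrez Gene 100038725), a centrosomal relative of Cep85, had 4.46, 5.02 and 4.45 CPM in Ctrl, 5.03, 5.21 and 5.70 in Cu-Cys and 10.28, 8.715 and 13.01 in Cadict. It rose by 1.20 with Cadict (SE 0.138, adjusted p = 6.27e-07), or 0.25 with library totals, which did not pass (adjusted p = 0.108), and did not pass with Cu-Cys (0.20, adjusted p = 0.274).

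Cep55 (Entrez Gene 74107), which brings the abscission machinery to the midbody at the end of division, was the most abundant member per length, at 87.6 ± 0.866 TPM in Ctrl (SD, n = 3). Its levels were 91.0, 91.5 and 93.0 CPM in Ctrl, 87.8, 88.2 and 91.4 in Cu-Cys and 67.0, 60.7 and 69.7 in Cadict, a fall by 0.48 with Cadict (SE 0.0565, adjusted p = 8.34e-07) and no passed change with Cu-Cys (-0.04, adjusted p = 0.542). Ift43 came next after Ift27 at 67.0 ± 3.59 TPM. Cep20 (Entrez Gene 66086), a small protein of the centriole and basal body, had 32.8, 31.6 and 30.6 CPM in Ctrl, 34.6, 34.9 and 35.5 in Cu-Cys and 52.2, 62.2 and 47.1 in Cadict. Its log2 fold change with Cadict was 0.76 (SE 0.0821, adjusted p = 2.8e-07), or -0.19 with library totals, which passed lower (adjusted p = 0.0281). Cep295nl (Entrez Gene 58251), a gene named for its likeness to Cep295, had 5.88, 4.89 and 5.41 CPM in Ctrl, 5.31, 5.81 and 5.34 in Cu-Cys and 3.74, 4.88 and 3.69 in Cadict, where replicate 2 lay just under the lowest Ctrl library. It fell by 0.40 with Cadict (SE 0.143, adjusted p = 0.0172), the largest adjusted p among the genes given in full in that comparison, and it did not pass without Ctrl replicate 1, Cadict replicate 1 or Cadict replicate 3 (adjusted p = 0.0595, 0.0687 and 0.0705), or with DESeq2's size factors or Wald test (adjusted p = 0.0819 and 0.149).

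**Figure D4:**
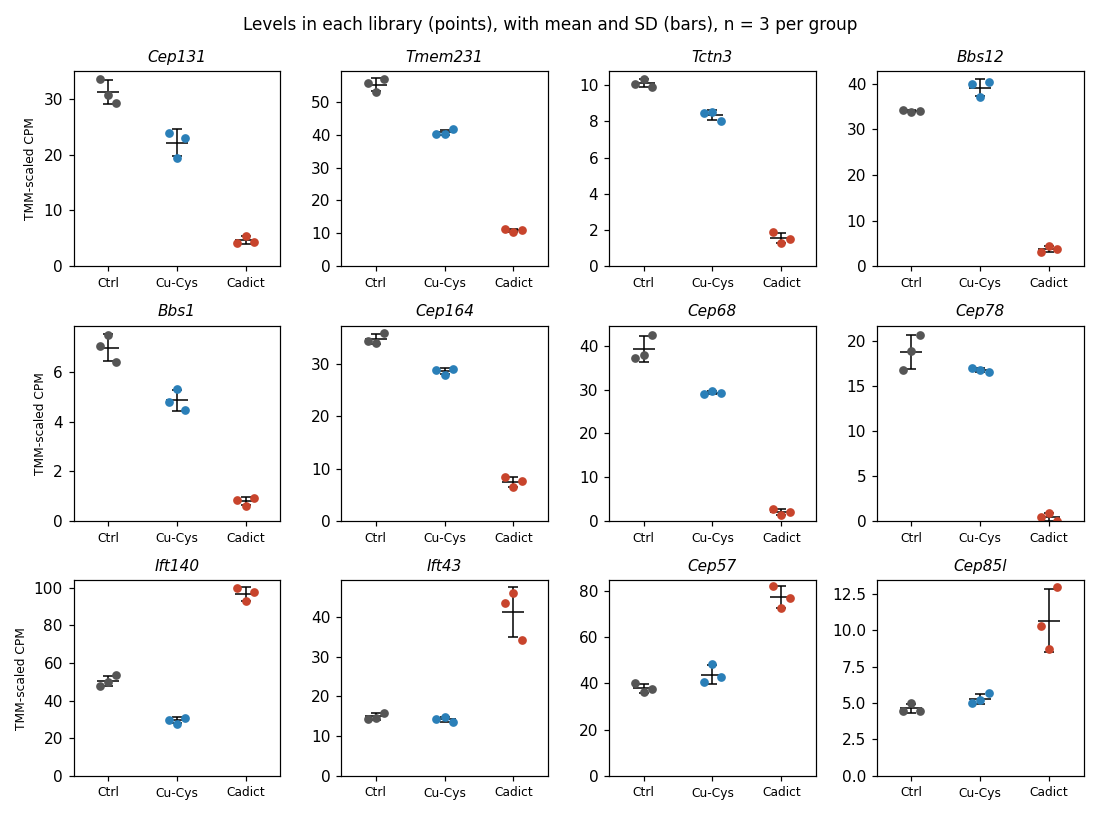
Levels of 12 members in each library (points, TMM-scaled CPM on axes that start at 0), with the mean and SD of each group of 3. Cep131, Tmem231, Tctn3, Bbs1, Cep164 and Cep68 step down from Ctrl through Cu-Cys to Cadict, Bbs12 is highest in Cu-Cys, and Ift140, Ift43, Cep57 and Cep85l are highest in Cadict on this scale. Of these 4, in Cadict against Ctrl with library totals, Ift140 drops to -0.01 (log2) and Cep57 (0.07) and Cep85l (0.25) do not pass. None of the 4 passes higher with limma on TPM.

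Because a ratio of a pair of genes in the same library depends on how libraries are scaled only through the 0.1 CPM added to each gene, 10 pairs of members were compared in that way. They were picked after their values had been seen and were given no test. Cep57 and its relative Cep57l1 had a log2 ratio of 0.75, 0.59 and 0.64 in Ctrl, 0.92, 1.21 and 1.10 in Cu-Cys and 2.76, 2.81 and 2.69 in Cadict, so the ratio was 4.26-fold higher in Cadict than in Ctrl. For Cep85l over Cep85 it was -2.76, -2.57 and -2.77 in Ctrl, -2.87, -2.76 and -2.74 in Cu-Cys and -0.84, -0.76 and -0.37 in Cadict, a 4.11-fold difference. Cep170 over Cep170b shifted by 1.49 on the log2 scale between the same groups. In each of these 3 pairs, the Cadict libraries lay above all others. Within complexes, Ift43 over Ift122 went from -0.79 ± 0.0851 in Ctrl (SD, n = 3) to 1.83 ± 0.166 in Cadict, a 6.19-fold difference. Ift140 over Ift122 went from 0.95 ± 0.0805 to 3.08 ± 0.126. Ift27 over Ift46, both of IFT-B, shifted by 1.99, and Dync2h1 over Dync2li1 by 1.77, the latter with 1 library, Cadict replicate 3 at 2.64, apart from the other 2 at 1.48 and 1.52. The largest shift of the 10 was that of the distal appendage genes: Cep83 over Cep89 went from 0.41 ± 0.0480 to 3.72 ± 0.106, which is 9.94-fold. Cep295 over Cep295nl shifted down, by -1.16.

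**Figure D5:**
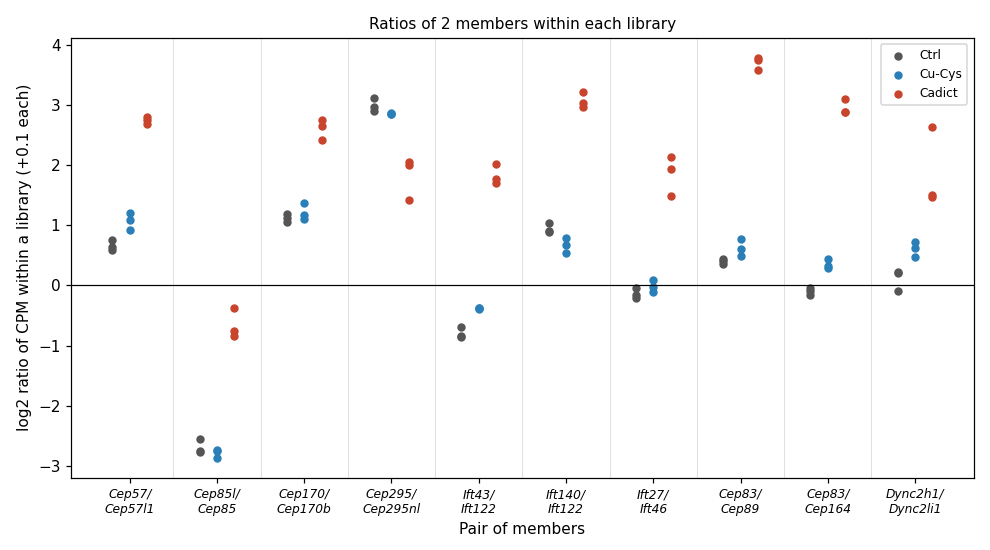
Log2 ratio of CPM (0.1 added to each) of 2 members within each library for 10 pairs, with grey for Ctrl, blue for Cu-Cys and red for Cadict. In 9 of the 10 pairs the Cadict points lie above all Ctrl points, by up to 3.31 for Cep83 over Cep89, and for Cep295 over Cep295nl they lie below them.

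Set side by side at an adjusted p of at most 0.05, 34 of the 77 members passed lower with both treatments. Another 21 passed lower with Cadict alone and 4 higher with both. Both comparisons share the Ctrl libraries. Of all genes, 22.4% passed lower with Cu-Cys and 47.1% with Cadict, and 22.6% and 40.6% passed higher. The joint shares over all genes were not computed, so nothing is read from these counts. The levels of Bbs12, Cep63 and Cep85 rose with Cu-Cys and fell with Cadict in this fit, although none of the 3 rises passed with limma on TPM. In 3 members, Ift140, Tmem67 and Cep290, it fell with Cu-Cys and was higher with Cadict under TMM, which with library totals held for none of the 3. Only 3 members, Bbs5, B9d1 and Cep120, passed in neither comparison. Members with longer transcripts tended to lower log2 fold changes in Cadict against Ctrl, with a Spearman correlation across genes of -0.198 over 76 members, beside -0.216 over 10877 genes, which share libraries and are not independent replicates. The median effective length was 2707 bases over members and 2566 over all genes.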

How the data were processed

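RNA from MC38 cells was measured in 9 libraries (3 Ctrl, 3 Cu-Cys, 3 Cadict). The authors deposited 1 table with expected counts (reads estimated per gene, not normalized), FPKM and TPM values for each library. The submitters' processing notes name HISAT2 2.1.0, Bowtie2 2.3.4.3 and RSEM 1.3.1 and the builds GRCh38.p13 and GRCm39. The labels name a column kit and DNA nanoballs, the study's methods TRIzol and an Illumina instrument. Columns named CC were read as Cu-Cys and CCGE as Cadict, the latter by inference from its components. The 9 deposited columns of counts divided by size factors and the group averages were not used.

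Expected counts were rounded and fitted with edgeR 4.0.16 in R 4.3.3 (filterByExpr by group, TMM, 1 quasi-likelihood model of the 3 groups). P-values were adjusted by Benjamini-Hochberg over the 11949 genes tested. Scripts were tested on simulated data. Alternatives used DESeq2 1.42.0, limma 3.58.1 on log2 of FPKM or TPM plus 1 or 0.1, other scalings, other filters and libraries left out. Same-numbered replicates had residual correlations of -0.148 to 0.145 over 9706 genes and were not treated as pairs. No pair of replicates agreed within sampling noise (chi-square per degree of freedom 1.86 to 21.8). Cadict replicate 2 stood apart: its 2 pairs were at 13.8 and 21.8, and the other Cadict pair at 3.5. Ctrl pairs were at 1.86 to 2.02 and Cu-Cys pairs at 2.61 to 4.4. The model shares 1 estimate of the spread over all 9 libraries, so p-values do not follow the wider spread in Cadict.

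The members and gene lists were chosen with earlier results of these data known. Genes given in full are, with a mean of at least 1 CPM, the 2 largest absolute changes with Cadict per role group, the 3 lowest and 3 highest members, the 3 smallest p with Cu-Cys (none was called) and the 3 highest Ctrl TPM. Some members are counted but not reported here by name. Genes were matched to the RefSeq promoters by Entrez ID. These sequences and the GENCODE M21 overlaps are on GRCm38, another build than the one named for the counts, so only gene identity was carried over.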

Additional observations from a re-analysis of the deposited data

How the results depend on the processing

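Directions were read relative to the TMM scaling. Library totals and limma on the deposited FPKM and TPM moved the members' median further than the other alternatives run. Library totals shifted the median of all genes by -0.95 in Cadict against Ctrl and -0.88 in Cadict against Cu-Cys, and turned the share of genes called higher and lower in the former from 20.7% and 27.1% to 6.93% and 51.5%. With library totals, 14 of the 77 members turned from above to below 0 in Cadict against Ctrl, and Ift43, Cep85l and Cep57 stayed above 0, of which Ift43 passed. The median log2 fold change of the members was below 0 under every alternative run in all 3 comparisons. Depth limited members with few counts, and p-values cover the spread between 3 libraries per group, which may be technical.

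In Cadict against Ctrl, the 34 members called lower became 60 with library totals and 55 with limma on log2(FPKM + 1). They became 62 on log2(TPM + 1) and 63 on log2(TPM + 0.1). In the same order, 51.5%, 41.5%, 54.2% and 60.3% of all genes were called lower, in place of 27.1%. The 3 members called higher became 0 in each, where 6.93%, 5.13%, 3.26% and 4.2% of all genes were called higher. The 14 members higher at an adjusted p of at most 0.05 became 1, 1, 0 and 0. In Cadict against Cu-Cys, the 27 members called lower became 55, 44, 55 and 58, beside 47.7%, 37.7%, 48.4% and 55.5% of all genes. The 4 members called higher became 0 in each and 2 with no filter, and the 17 higher at 0.05 became 2 in each. In Cu-Cys against Ctrl, the 8 higher at 0.05 became 4, 3, 0 and 0 in the same order and ranged from 4 to 10 when 1 library was left out. Shares of all genes higher at 0.05 were not computed under these alternatives, so nothing is read from the members' counts at that limit. The members' median of -0.87 in Cadict against Ctrl became -1.82, -1.39, -1.76 and -2.05 in that order. The median of all genes, -0.13, became -1.08, -0.78, -1.13 and -1.39. The members' median was -0.75 under DESeq2's size factors, -0.75 under its Wald test and -0.93 with no filter, and -0.89 to -0.80 when 1 library was left out. In Cadict against Cu-Cys the members' median of -0.59 became -1.48, -1.17, -1.49 and -1.71. That of all genes, -0.099, became -0.98, -0.68, -0.96 and -1.20. For the members it was -0.50 under DESeq2's size factors, -0.53 under its Wald test and -0.62 with at least 10 counts in every library. It was -0.69 with no filter, and -0.66 to -0.60 when 1 library was left out. In Cu-Cys against Ctrl the members' median of -0.21 became -0.28, -0.25, -0.34 and -0.35, and -0.18 under DESeq2's Wald test. That of all genes, 0.0067, became -0.061, -0.050, -0.12 and -0.13 in the first 4 of these. Beyond the scaling itself, the cause was not tested.

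With library totals, log2 fold changes changed sign in Cadict against Ctrl Cep20 at -0.19, Dync2h1 at -0.31, Ift140 at -0.012, Ift27 at -0.50, Cep83 at -0.098, Tmem67 at -0.34, Cep290 at -0.70, Cep43 at -0.11, Cep170 at -0.55, and in Cadict against Cu-Cys Cep20 at -0.27, Cep57 at -0.066, Dync2h1 at -0.14, Ift27 at -0.28, and in Cu-Cys against Ctrl Cep295nl at -0.045. With limma on log2(FPKM + 1), log2 fold changes changed sign in Cadict against Ctrl Cep20 at -0.21, Dync2h1 at -0.14, Ift27 at -0.52, Cep83 at -0.100, Tmem67 at -0.26, Cep290 at -0.56, Cep43 at -0.10, Cep170 at -0.54, and in Cadict against Cu-Cys Cep20 at -0.28, Cep57 at -0.075, Dync2h1 at -0.068, Ift27 at -0.30, and in Cu-Cys against Ctrl Cep295nl at -0.046. With limma on log2(TPM + 1), log2 fold changes changed sign in Cadict against Ctrl Cep20 at -0.55, Cep57 at -0.28, Cep85l at -0.061, Dync2h1 at -0.36, Ift140 at -0.32, Ift27 at -0.87, Cep83 at -0.43, Tmem67 at -0.56, Cep290 at -0.89, Cep43 at -0.44, Cep170 at -0.89, and in Cadict against Cu-Cys Cep20 at -0.55, Cep57 at -0.34, Cep85l at -0.097, Dync2h1 at -0.22, Ift27 at -0.57, and in Cu-Cys against Ctrl Cep20 at -0.0013, Cep295nl at -0.11. With limma on log2(TPM + 0.1), log2 fold changes changed sign in Cadict against Ctrl Cep20 at -0.56, Cep57 at -0.29, Cep85l at -0.11, Dync2h1 at -0.62, Ift140 at -0.33, Ift27 at -0.88, Cep83 at -0.45, Tmem67 at -0.67, Cep290 at -1.02, Cep43 at -0.45, Cep170 at -0.91, and in Cadict against Cu-Cys Cep20 at -0.56, Cep57 at -0.35, Cep85l at -0.17, Dync2h1 at -0.41, Ift27 at -0.58, and in Cu-Cys against Ctrl Cep20 at -0.0013, Cep295nl at -0.13. When 1 library was left out, Cep295nl ranged from -0.041 to 0.091 and Cep89 from -0.12 to 0.0030 in Cu-Cys against Ctrl. These are the members given with values. Of those that changed sign with library totals in Cadict against Ctrl, Cep20, Dync2h1, Ift27, Tmem67, Cep290 and Cep170 passed lower at 0.05. Ift140, Cep83 and Cep43 did not pass there. Of those that changed sign with limma on TPM in that comparison, all but Cep85l passed lower at 0.05, with either number added. Of those named as passing in neither treatment, B9d1, Bbs5 and Cep120 turned to -0.73, -0.92 and -0.89 in Cadict against Ctrl with library totals.

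The labels do not say whether a replicate number marks a shared origin. With the number as a replicate block in the same edgeR fit, the members higher at 0.05 in Cu-Cys against Ctrl went from 8 to 7, every other count of members was the same as without it, and the medians were -0.87, -0.59 and -0.21.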

Other observations

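Genes of the same structures under other symbols, listed from general knowledge, were described in the same fit, in which 47.1% of all genes passed lower and 40.6% higher in Cadict against Ctrl, 27.1% and 20.7% being called, and nothing particular to a list is read from its counts. Of 29 tested subunits that share complexes with the members (Ttc30b, Wdr19, Bbip1 and others), 14 were called lower and 2 higher in Cadict against Ctrl, with a median log2 fold change of -0.94, and Ttc30b, an IFT-B subunit, was the lowest at -4.38 with 0.170, 0.784 and 0.0839 CPM in Cadict beside 6.92, 7.06 and 7.67 in Ctrl. Ttc30b has a near copy, Ttc30a1, at -4.06, and reads of these relatives may have been shared in counting. Of 23 centriole and pericentriolar genes, 12 were called lower and 1, Haus8, higher, at 1.51. The Hedgehog pathway, which vertebrate cells read through the cilium, had 9 tested genes, all of which passed lower with Cadict, 7 of them called, with a median of -1.32. Smo, its signal transducer, stood at 92.2, 89.6 and 84.5 CPM in Ctrl, 84.2, 84.0 and 90.4 in Cu-Cys and 27.7, 22.9 and 27.5 in Cadict. Kif7, a ciliary kinesin of the pathway, fell by 2.90.

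Of 10 cilium disassembly genes, 5 were called lower and none was called higher, with a median of -1.02. At 0.05, 7 passed lower and 2 higher, beside 47.1% and 40.6% of all genes, and the highest log2 fold change was 0.99. Plk1, a mitotic kinase, went from 96.8, 97.6 and 94.3 CPM in Ctrl to 9.09, 5.75 and 6.72 in Cadict. The 5 tested RFX factors all passed lower, 3 of them called, with a median of -1.004. Of 15 genes of the motile cilium, 2 were tested and the list summed to 2.95 to 3.72 TPM in Ctrl, and Foxj1, its master regulator, had a mean of 0.12 TPM there. The haematopoietic and endothelial markers summed to 6.89 to 7.47 and 0.63 to 1.20 TPM in Ctrl and to 14.84 to 18.22 and 0.41 to 0.90 in Cadict, and the epithelial list to 4.23 to 6.25 and 11.49 to 13.22. The haematopoietic Cd68 (log2 fold change 2.49), the endothelial Kdr (a mean of 0.072 CPM in Ctrl, within the limit of 3 counts, and 1.17 in Cadict) and the epithelial Krt19 and Cdh1 were called higher in Cadict, and the endothelial list summed to 1.003 to 1.73 CPM in Ctrl and 2.092 to 3.611 in Cadict. Their part in the members' changes was not tested.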
